A study of Dorcoceras hygrometricum with 14 samples.

Results

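The genes described here match families in which plants are known to switch on some genes when phosphate runs short. A gene for an extracellular ribonuclease LE-like protein is among them. A match to such a family does not show that a gene responds to phosphate. The genes were read in leaf explants of the resurrection plant Boea hygrometrica (Dorcoceras hygrometricum). Members were taken by a text match on the homology description or product name in the deposited expression table, with the terms purple acid phosphatase, inorganic phosphate transporter, phosphate transporter PHO, SPX domain, extracellular ribonuclease, phosphate starvation, sulfoquinovos, monogalactosyldiacylglycerol, digalactosyldiacylglycerol and glycerophosphodiester. The match gave 59 of the 24110 genes in the table. The rule itself uses no measured value, but the terms were chosen with earlier results of these data known. They comprised 1 extracellular ribonuclease, 7 inorganic phosphate transporters of the PHT1 type, 18 purple acid phosphatases, 12 genes with a glycerophosphodiester phosphodiesterase (GDPD) description or product, 8 PHO1-type transporters, 5 SPX domain proteins, 7 genes of galactolipid metabolism and 1 of sulfolipid synthesis. The text match is loose at its edges, since 7 members were described as protein kinases, among them receptor-like kinases in the GDPD group, and F511_06065 of the galactolipid group is a fatty acid desaturase.

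RNA was measured in 12 libraries. Segments of young leaves, 0.5 cm on a side, were cut from sterile plants 1 month old that had been raised from wild-collected seed, and were laid with the lower leaf side down on 1/2 MS medium with 2,4-D, a synthetic auxin, and 6-BA, a cytokinin, each at 0.1 mg/L. They were sampled after 0, 5, 10 and 15 days, with 3 biological replicates per day and about 30 leaf discs mixed in each, and all later days were compared with day 0. No transgene or mutant was involved, no group was labelled as grown with less phosphate, and phosphate itself was not measured. A bisulfite data set held 1 library from young leaves of plants 1 month old and 1 from mature leaves of plants 6 months old, each mixed from 5 DNA replicates.

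In plants, phosphate supply is sensed in the cell through inositol pyrophosphates, which bind SPX proteins and let them hold back the PHR transcription factors. When phosphate falls, PHR factors raise PHT1 transporters for uptake, secreted and vacuolar acid phosphatases and ribonucleases that free phosphate from organic matter and RNA, and enzymes that replace membrane phospholipids by galactolipids and sulfolipid. Several SPX genes, such as SPX1 and SPX3 of Arabidopsis, are themselves strongly raised by starvation and are used as reporters of it.

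Values are FPKM, fragments scaled to transcript length and library size, as computed by the authors. Totals of the 12 libraries ran from 846672 to 970083 FPKM, and 15531 to 16496 genes reached 1 FPKM. With no counts deposited the sequencing depth is unknown, so the precision given is the spread between libraries. The leaf tissue named in the labels carried its markers: 2 genes for the small chain of Rubisco summed to 44263.69 to 49520.87 FPKM at day 0, and to 6766.73 to 16786.62 at day 15. In RNA from whole explants, fewer cells of a type and less RNA per cell cannot be told apart. A gene was tested when it reached 1 FPKM in at least 3 libraries, which held for 17288 genes and for 43 of the 59 members. It was called when its change on the log2(FPKM + 1) scale was at least 1 in size with an adjusted p under 0.05 in limma, with Benjamini-Hochberg adjustment over all 17288 genes. The 16 members left untested never exceeded 2.45 FPKM, and 30 members stayed at 1 FPKM or above in all 12 libraries.

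The ribonuclease F511_39535, the PHT1 transporter F511_20836 and the purple acid phosphatase F511_28549 were called higher at days 5, 10 and 15. A second PHT1 transporter, F511_39324, was also called on all 3 days, but it entered the test only through its later libraries, and its day 5 and day 10 calls were lost in 9 and 8 of the 18 alternatives run. In the same comparisons the SPX1-like and SPX3 genes, the PHO1 family and the digalactolipid synthases gave no call, and a sulfolipid enzyme fell by day 15. Of all genes tested, 6.61%, 4.49% and 9.02% were called at days 5, 10 and 15. Groups this small could hold no call at such shares, so nothing is read from the absence. At day 5, 4 of the 43 tested members were called higher against a background of 3.13% of all genes tested, and 1 was called lower against 3.48%. At day 10 the counts were 4 higher against a background of 2.24%, and 1 lower against 2.26%. At day 15 they were 6 higher against 4.63% and 2 lower against 4.38%. The higher counts include F511_39324 and the lower counts F511_04047, and both genes passed the filter only through the days on which they were high, so the counts are a description and nothing is read from their excess over the background. The members' median log2 change was 0.13, 0.08 and 0.05 at days 5, 10 and 15, and the median over all genes tested was 0.14, 0.15 and 0.21. The members went both ways. Their quartiles at day 5 were -0.37 and 0.70, against -0.28 and 0.46 for all genes, and 17 of the 43 had an unadjusted p under 0.05 in limma, against 5010 of 17288. The 3 comparisons share their day 0 libraries and are not independent of each other. Without replicate 1 of day 0 the higher calls numbered 2, 2 and 3 at days 5, 10 and 15. Those at day 10 were also 2 without replicate 2 of day 0, without replicate 2 of day 10 or without replicate 3 of day 10. The lower call of days 5 and 10 was F511_04047, whose dependence on single libraries is given with that gene, and without replicate 1 of day 10 the lower calls at day 10 were 2.

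The split between directions depended on the scaling of the libraries. As deposited, 541 genes were called higher and 601 lower at day 5, 387 and 390 at day 10, and 801 and 758 at day 15. After rescaling by median ratios, which moved the median log2 change of all genes to -0.01, 0.00 and 0.02, the counts were 350 and 731, 248 and 504, and 493 and 1000. The members called higher and lower were then 4 and 2 at day 5, 4 and 1 at day 10, and 4 and 2 at day 15. No call of a member changed direction, and the log2 change of F511_39535 at day 5 was 4.62 on that scale.

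No member was called between day 5 and day 10 or between day 10 and day 15, where the background was 0.0% in both comparisons, since limma called no gene at all. At an unadjusted p under 0.05, 2 members and 539 of all genes differed between days 5 and 10, and 1 member and 561 of all genes between days 10 and 15. The F test of the 3 later days against day 0, with no minimum change, called 9 of the 43 members against a background of 8.82%. They were the ribonuclease F511_39535, the transporters F511_20836 and F511_39324, the acid phosphatases F511_28549 and F511_24759, the SPX membrane protein F511_04047, the sulfolipid enzyme F511_26146, the galactolipid synthase F511_26587 and the phosphodiesterase F511_05991. F511_39324 and F511_04047 passed the filter only through the days on which they were high, so nothing is read from the excess over the background. The count of members called by the F test fell to 2 without replicate 1 of day 0, 2 without replicate 2 of day 0 and 3 without replicate 3 of day 0. It was 4 without replicate 1 of day 5, 3 without replicate 2 of day 5, 3 without replicate 2 of day 10 and 3 without replicate 2 of day 15. The share of all genes called fell too, from 8.82% to 1.16%, 1.58% and 7.8% without replicates 1, 2 and 3 of day 0, to 4.29% and 4.11% without replicates 1 and 2 of day 5, to 5.43% without replicate 2 of day 10 and to 4.16% without replicate 2 of day 15. By mean FPKM, 18 of the 43 tested members stood highest at day 0, 9 at day 5, 4 at day 10 and 12 at day 15.

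**Figure D1:**
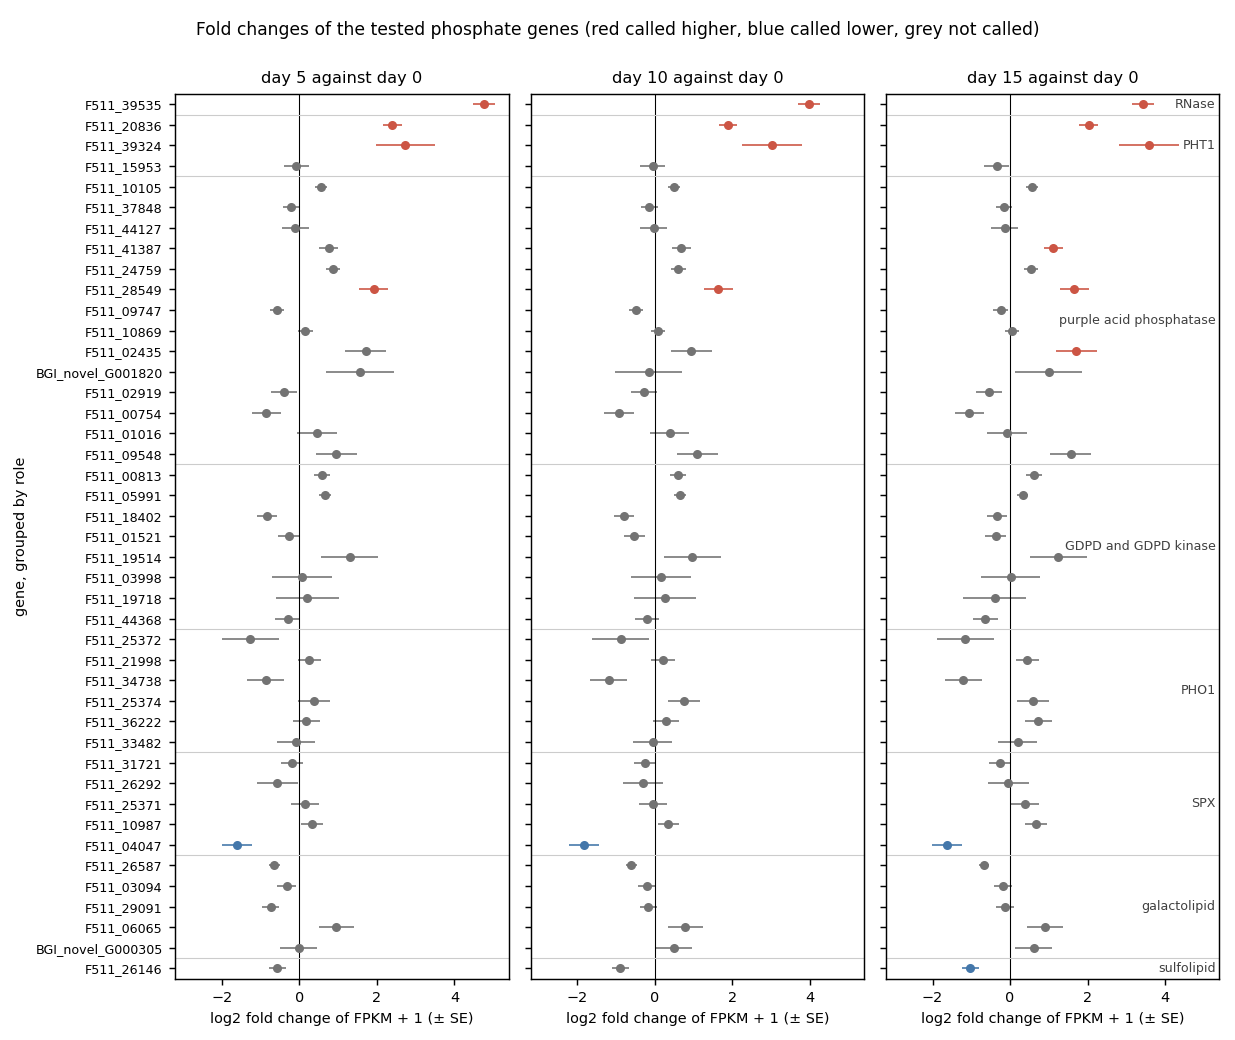
Log2 fold change of FPKM + 1 with its standard error (x axis) for the 43 tested members (y axis, grouped by role) at days 5, 10 and 15 against day 0, with genes called higher in red, called lower in blue and not called in grey. The ribonuclease F511_39535 lies farthest to the right at day 5 with a log2 change of 4.76, and the PHO1 group holds no coloured point on any day.

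The largest change among the members at day 5 was that of F511_39535, the single gene described as extracellular ribonuclease LE-like. Ribonuclease LE of tomato is a secreted enzyme of the T2 family, known from cultured cells starved of phosphate, that breaks down RNA outside the cell. The gene lies on scaffold KV014478.1 at 21361 to 25623, in the coordinates of the deposited table. Its FPKM in replicates 1, 2 and 3 was 4.12, 3.54 and 1.54 at day 0 and 136.01, 79.36 and 105.23 at day 5. It was 61.61, 51.8 and 69.86 at day 10 and 33.88, 42.59 and 48.47 at day 15. Every later library lay far above every day 0 library, and the libraries of days 5, 10 and 15 did not overlap either, with day 5 the highest and day 15 the lowest of the 3. The mean at day 5 was 34.8 times that of day 0, at 107 ± 28.4 against 3.07 ± 1.35 FPKM (SD, n = 3). At days 10 and 15 it was 19.9 and 13.6 times the day 0 mean.

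In limma the log2 change of F511_39535 was 4.76 ± 0.28 (SE) at day 5, with an adjusted p of 5.95e-05. It was 3.98 at day 10 (adjusted p = 0.000381) and 3.44 at day 15 (adjusted p = 0.00041), with the same SE. All 3 calls held in each of the 18 alternatives run, over which the log2 change ranged from 4.44 to 5.16 at day 5, 3.58 to 4.37 at day 10 and 3.02 to 3.82 at day 15. The descent after day 5 did not pass the test, with a log2 difference of -0.77 (95% confidence interval -1.39 to -0.16) from day 5 to day 10 and -0.55 (-1.16 to 0.07) from day 10 to day 15, each at an adjusted p of 1.0 in limma. A gene described as intracellular ribonuclease LX-like, F511_36887, which is no member, was listed between 0.0 and 2.23 FPKM and was not tested.

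Across the 12 libraries, the genes whose log2(FPKM + 1) followed F511_39535 most closely by Pearson's r were BGI_novel_G001007, an ATHB-6-like homeobox-leucine zipper protein (r = 0.97), and F511_29777, a 60S ribosomal protein L5-like gene (0.968). Next came the 60S ribosomal proteins F511_24743, L3-like (0.967), and F511_41937, L9 (0.967), and the WD repeat protein F511_04010 (0.965). Within the members r ran from -0.91 for the SPX membrane protein F511_04047 to 0.93 for the transporter F511_20836. These values describe the likeness of time courses in libraries that share days and replicates, and no test was made of them.

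The PHT1 transporters carry phosphate with protons across the plasma membrane and are best known from root hairs and root epidermis. The most abundant PHT1 gene was F511_20836, which is described as PHT 1-4-like and lies on scaffold KQ998099.1 at 34928 to 36541. Its FPKM in replicates 1, 2 and 3 was 49.31, 62.16 and 54.05 at day 0 and 262.57, 282.77 and 337.14 at day 5. It was 144.08, 292.82 and 206.6 at day 10 and 189.97, 268.52 and 231.39 at day 15. All 9 later libraries stood above the day 0 libraries, and days 5, 10 and 15 overlapped only in part, since the day 15 libraries lay within the range of day 10. The mean rose from 55.2 ± 6.50 to 294 ± 38.6 FPKM at day 5 (SD, n = 3), a ratio of 5.33, and the ratios at days 10 and 15 were 3.89 and 4.17. The log2 change was 2.39 ± 0.24 (SE) at day 5, 1.89 at day 10 and 2.03 at day 15, with adjusted p of 0.00114, 0.00359 and 0.00127 in limma.

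A second PHT 1-4-like gene, F511_39324 on scaffold KV015116.1, was nearly silent in fresh leaf. Its FPKM was 0.7, 0.99 and 0.95 at day 0, then 9.31, 5.48 and 27.99 at day 5. It was 7.97, 20.87 and 17.19 at day 10 and 8.25, 13.3 and 86.28 at day 15. Each of the 9 later libraries exceeded each day 0 library, but the later libraries of a day differed widely, with replicate 3 of day 15 the highest by far. The gene passed the filter on low values through the later days alone, so it could be tested only as a gene that was higher later, and its calls lend no support to a pattern. Its log2 change was 2.73, 3.03 and 3.59 at days 5, 10 and 15 (SE 0.77), with adjusted p of 0.0424, 0.0382 and 0.0126 in limma. The day 15 call held in every alternative, without replicate 3 of day 15 too, with adjusted p from 0.00482 to 0.0484.

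The earlier calls of F511_39324 rested on single libraries. At day 5 the adjusted p was 0.122 without replicate 1 of day 0, 0.105 without replicate 2 and 0.0717 without replicate 3. It was 0.0972, 0.0635 and 0.117 without replicates 1, 2 and 3 of day 5, 0.0567 without replicate 2 of day 10 and 0.0543 without replicate 2 of day 15. At day 10 it was 0.121, 0.102 and 0.0581 without replicates 1, 2 and 3 of day 0, and 0.0573 without replicate 1 of day 5. It was 0.126 and 0.0888 without replicates 2 and 3 of day 10, and 0.0508 without replicate 2 of day 15. With no filter on low values the adjusted p was 0.0662 at day 5 and 0.0612 at day 10.

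The other PHT1 members added little. F511_15953, PHT 1-11-like, stood at 3.22 ± 0.741 FPKM at day 0 and 2.29 ± 0.199 at day 15 (SD, n = 3) and was not called on any day. Its log2 difference at day 15 was -0.35 (95% confidence interval -1.04 to 0.35). F511_20834, F511_13988, F511_33974 and F511_01503 never passed 0.7 FPKM and were not tested. F511_20836 and F511_39324 share a description, and how reads were divided among similar copies is not given in the sources used here. Summed over all 7 members, PHT1 FPKM was 52.77 to 67.1 at day 0, 275.6 to 367.4 at day 5, 155.4 to 317.3 at day 10 and 201.5 to 321.3 at day 15. F511_20836 made up 91.3% to 93.4% of that sum at day 0 and 72.0% to 94.3% at day 15. F511_20834 lies 20575 bases from F511_20836 on the same scaffold with 1 listed gene between them, so a strongly and a barely expressed PHT1 gene stood close together. Since PHT1 genes are known from roots, root markers were read beside them: the 6 genes described as Casparian strip membrane proteins summed to 0.82 to 16.75 FPKM at day 0, 2.71 to 25.36 at day 5, 1.04 to 26.17 at day 10 and 24.34 to 41.15 at day 15, and none of the 6 was at 0 in all libraries. Their part in the PHT1 result was not tested.

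**Figure D2:**
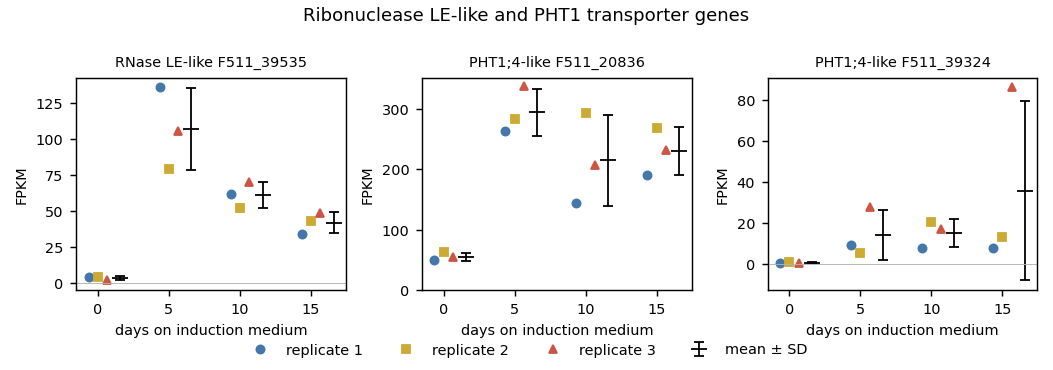
FPKM (y axis, linear) by day on induction medium (x axis) for the ribonuclease LE-like gene and the 2 called PHT1;4-like transporters, with a symbol for each replicate library and a bar for the mean ± SD of 3. The ribonuclease peaks at day 5, F511_20836 stays between 144.08 and 337.14 FPKM in the later libraries, and F511_39324 has its highest value, 86.28 FPKM, in replicate 3 of day 15.

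Purple acid phosphatases are metal enzymes that split phosphate from organic esters in the vacuole, wall and medium. Of the 18 members 14 were tested, and none was called lower. At day 5, 1 was called higher, at day 10 again 1 and at day 15 3. Of all genes tested, 3.13%, 2.24% and 4.63% were called higher on those days. Nothing is read from counts this small. The clearest call was that of F511_28549, described as purple acid phosphatase 2. Its FPKM was 7.18, 9.94 and 12.62 at day 0 and 33.24, 31.31 and 57.62 at day 5. It was 20.24, 37.77 and 44.15 at day 10 and 24.29, 28.03 and 51.54 at day 15. All later libraries lay above the day 0 libraries, while the later days overlapped each other. The mean was 9.91 ± 2.72 at day 0 and 40.7 ± 14.7 at day 5 (SD, n = 3), a ratio of 4.11, followed by ratios of 3.44 and 3.49. The log2 change was 1.91, 1.64 and 1.66 at days 5, 10 and 15 (SE 0.37), with adjusted p of 0.0117, 0.026 and 0.0141 in limma. Without replicate 1 of day 0 the adjusted p was 0.0502, 0.103 and 0.0598, and at day 10 it was also above the threshold without replicate 2 of day 0 (0.0823), replicate 2 of day 10 (0.0951) or replicate 3 of day 10 (0.0681).

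A pair of genes described as probable inactive purple acid phosphatases, named so because such proteins lack residues that the active enzymes need, were called higher at day 15. Neither was called at days 5 or 10, and neither was called between days 10 and 15. F511_41387, inactive purple acid phosphatase 2, had 17.6, 33.32 and 26.88 FPKM at day 0, then 46.24, 56.41 and 65.74 at day 15. The libraries of those days did not overlap, and the log2 change was 1.12 ± 0.25 (SE; adjusted p = 0.0147 in limma). F511_02435, inactive purple acid phosphatase 16, had 5.4, 4.69 and 3.5 FPKM at day 0, 25.34, 21.65 and 8.64 at day 5, 9.9, 22.2 and 3.56 at day 10 and 19.17, 18.17 and 13.8 at day 15. Only at day 10 did its libraries overlap those of day 0. Its log2 change was 1.71 at day 15 (SE 0.53, adjusted p = 0.0483 in limma) and also 1.71 at day 5, where the adjusted p of 0.0572 missed the threshold.

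Both day 15 calls depended on single libraries. For F511_41387 the adjusted p was 0.0577 without replicate 1 of day 0 and 0.0517 without replicate 3 of day 15, and its log2 change was 0.91 after rescaling the libraries by median ratios. For F511_02435 the adjusted p was 0.1, 0.107 and 0.101 without replicates 1, 2 and 3 of day 0, and 0.108, 0.116 and 0.0833 without replicates 1, 2 and 3 of day 15. It was 0.0574 without replicate 1 of day 5, 0.0637 without replicate 2 of day 5 and 0.0574 without replicate 1 of day 10. After rescaling it was 0.104, and with no filter on low values 0.0732.

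The most abundant acid phosphatases moved less. F511_10105, purple acid phosphatase 18-like and the highest of the group on average, stood at 86.1 ± 6.07 FPKM at day 0 and 127 ± 9.03, 122 ± 14.0 and 129 ± 19.8 at days 5, 10 and 15 (SD, n = 3). Its libraries at each later day lay above those of day 0, and its log2 changes of 0.56, 0.50 and 0.57 (adjusted p = 0.0394, 0.0695 and 0.0285 in limma) stayed under the minimum for a call. F511_37848, described as purple acid phosphatase 26, in Arabidopsis the main vacuolar and secreted acid phosphatase, was at 120 ± 13.1 FPKM at day 0 and 108 ± 11.3 at day 15. Its log2 difference was -0.15 with a 95% confidence interval of -0.61 to 0.31. F511_44127, purple acid phosphatase 4-like, averaged 85.9 ± 25.1 FPKM at day 0 and 77.9 ± 24.9 at day 15 and overlapped throughout. F511_24759, inactive purple acid phosphatase 1, went from 22.1 ± 3.63 FPKM at day 0 to 40.7 ± 1.98 at day 5, a log2 change of 0.87 (adjusted p = 0.0149 in limma) that was also below the minimum.

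Among the less abundant acid phosphatases, F511_02919 is described as purple acid phosphatase 17-like, and PAP17 of Arabidopsis is a usual reporter of phosphate starvation. Its FPKM was 3.37, 6.38 and 6.75 at day 0, 5.17, 4.16 and 2.42 at day 5, 4.03, 3.74 and 4.89 at day 10 and 3.28, 5.05 and 2.12 at day 15. The days overlapped, and the log2 difference at day 5 was -0.40 with a 95% confidence interval of -1.15 to 0.35. F511_00754, purple acid phosphatase 23, stood at 6.45 ± 1.68 FPKM at day 0 and 2.76 ± 1.45 at day 15, a log2 difference of -1.05 (adjusted p = 0.0766 in limma) that missed the threshold although the libraries did not overlap. F511_09548, probable purple acid phosphatase 20, was at 0.107 ± 0.0971 FPKM at day 0 and 2.53 ± 1.76 at day 15 (log2 difference 1.57, adjusted p = 0.065 in limma). It passed the filter on low values through the later days alone, so it could be tested only as a gene that was higher later. F511_09747, F511_10869, F511_01016 and BGI_novel_G001820 were not called on any day, and F511_36672, F511_36309, F511_36641 and F511_09547 were too low to test, at 0.82 FPKM or less. Summed over all 18 members, acid phosphatase FPKM as deposited was 389.1 to 441.0 at day 0 and 480.7 to 537.3 at day 5. That separation depends on the scaling of the libraries. The median-ratio factors, by which values are divided, were 0.885 to 0.947 at day 0 and 0.978 to 1.12 at day 5. Rescaling thus raises the day 0 sums relative to those of day 5.

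**Figure D3:**
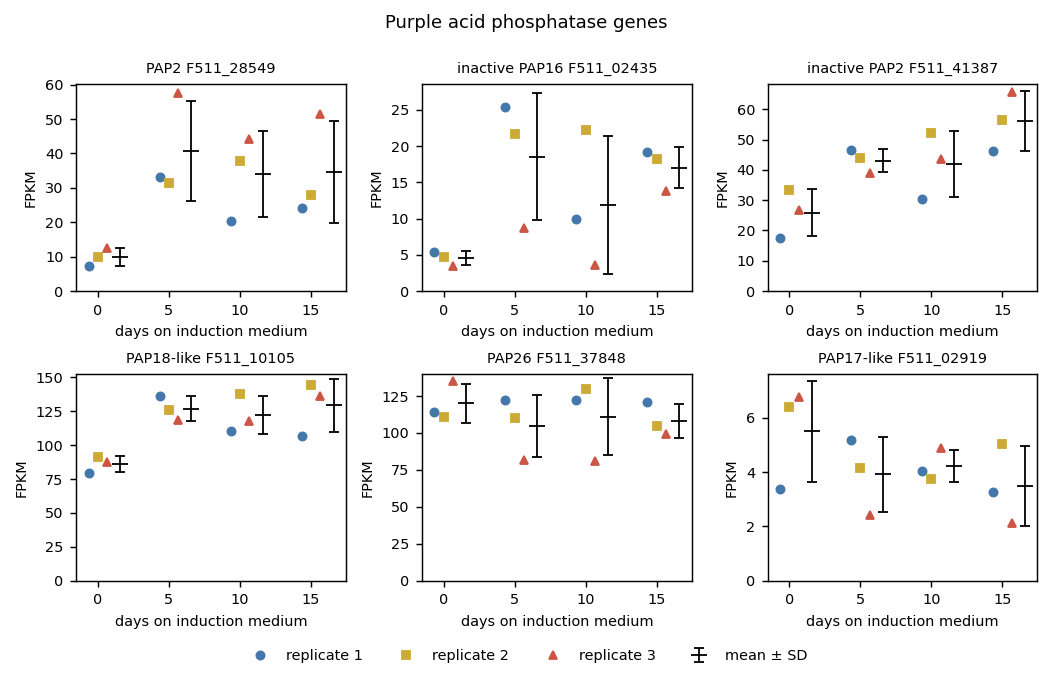
FPKM (y axis, linear from 0) by day (x axis) for 6 purple acid phosphatase genes, with a symbol per replicate library and a bar for the mean ± SD of 3. F511_28549 and the 2 inactive-type genes stand higher at day 15 than at day 0, whereas F511_37848 and F511_02919 overlap between day 0 and the later days.

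The GDPD enzymes release glycerol phosphate from deacylated phospholipids, and several are raised by phosphate starvation in Arabidopsis. None of the 8 tested members of this group was called in any comparison. F511_00813, GDPDL3-like and the most abundant, had 109.8, 100.61 and 105.98 FPKM at day 0, then 174.33, 146.54 and 156.49 at day 5. It had 147.61, 180.07 and 156.46 at day 10 and 134.87, 136.55 and 230.76 at day 15. All later libraries exceeded those of day 0, and the log2 changes of 0.59, 0.60 and 0.62 had adjusted p of 0.0797, 0.0857 and 0.0575 in limma. GDPDL3 of Arabidopsis is known for cell wall organisation in root hairs rather than for lipid turnover. F511_05991, described as GDPD4, was at 21.2 ± 0.86 FPKM at day 0 and 34.2 ± 3.67 at day 5, with a log2 change of 0.66 (adjusted p = 0.0189 in limma) below the minimum for a call. F511_18402, GDPD1-like, went the other way, from 23.9 ± 4.41 to 12.8 ± 2.10 FPKM (log2 difference -0.85, adjusted p = 0.0534). GDPD1 of Arabidopsis is the plastid enzyme that starvation raises. The tested kinase-like genes were F511_01521, F511_19514, F511_03998, F511_19718 and F511_44368, and the libraries of each overlapped between day 0 and day 5. F511_18403, F511_11140, F511_29071 and F511_34662 were too low to test.

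SPX proteins are the phosphate sensors themselves, and all 5 members were tested. F511_31721, SPX1-like and the most abundant, had 12.34, 23.83 and 32.56 FPKM at day 0, then 15.04, 19.33 and 21.6 at day 5. It had 18.62, 15.07 and 19.74 at day 10 and 18.28, 17.2 and 17.66 at day 15. Every later library lay inside the range of day 0. The log2 difference was -0.20 at day 5 (95% confidence interval -0.83 to 0.43) and -0.25 at day 15 (-0.88 to 0.38). The upper bounds of both intervals lie below a rise of 1 on the log2 scale. F511_10987, described as SPX3, was at 2.63 ± 1.15 FPKM at day 0 and 4.61 ± 0.720 at day 15 (SD, n = 3), where its libraries stood above those of day 0, and the log2 difference of 0.67 (0.05 to 1.28) had an adjusted p of 0.122 in limma. F511_25371, SPX4, was at 6.34 ± 2.14 FPKM at day 0 and 8.39 ± 1.41 at day 15 and was not called.

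The remaining SPX members are membrane proteins similar to At4g22990, an Arabidopsis gene of the family that carries phosphate into the vacuole. F511_04047 was called lower at each later day. Its FPKM was 2.47, 2.12 and 6.8 at day 0 and 0.46, 0.4 and 0.44 at day 5. It was 0.18, 0.48 and 0.06 at day 10 and 0.82, 0.46 and 0.06 at day 15. No later library reached 1 FPKM, and the day 0 libraries were the ones that brought the gene past the filter on low values, so it could be tested only as a gene that was lower later, and its calls lend no support to a pattern. The log2 change was -1.61, -1.84 and -1.64 at days 5, 10 and 15 (SE 0.39), with adjusted p of 0.024, 0.0213 and 0.0179 in limma.

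Without any of the 3 day 0 libraries F511_04047 was no longer tested. At day 5 its adjusted p was 0.0755, 0.0782 and 0.0502 without replicates 1, 2 and 3 of that day, and 0.0655 with a pseudocount of 0.1. At day 10 it was 0.0538 and 0.0527 without replicates 2 and 3 of day 10, and at day 15 it was 0.0528 and 0.0612 without replicates 2 and 3 of day 15. The related F511_26292 was not called and stood at 8.66 ± 1.85 FPKM at day 0 and 8.91 ± 4.65 at day 15 (log2 difference -0.04, 95% confidence interval -1.19 to 1.10). Replicate 3 was the highest library of F511_26292 on every day, from 10.72 to 14.47 FPKM, and the others ran from 3.19 to 8.12.

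The PHO1 family exports phosphate from cells, above all into the root xylem. None of its 6 tested members was called in any comparison. F511_25372, PHO1 homolog 9 and the most abundant, had 31.14, 31.69 and 5.19 FPKM at day 0, then 9.63, 4.81 and 6.56 at day 5. It had 4.15, 25.61 and 6.68 at day 10 and 6.15, 14.13 and 4.47 at day 15. A single low library, replicate 3, made day 0 overlap with every later day, and the log2 differences of -1.27, -0.88 and -1.15 (SE 0.73) had adjusted p of 0.283, 0.482 and 0.298 in limma. F511_34738, PHO1 homolog 10, had 9.18, 2.39 and 1.89 FPKM at day 0 and at most 1.79 later, with a log2 difference of -1.21 at day 15 (adjusted p = 0.101 in limma). F511_21998 stood between 3.25 and 7.81 FPKM, F511_25374, F511_36222 and F511_33482 stayed at 3.32 or below, and F511_34178 and F511_21999 were too low to test. F511_25372 lies 690 bases from the SPX4 gene F511_25371 on scaffold KV019592.1, with F511_25374 a further 15244 bases along. At day 5 the log2 differences of F511_25371, F511_25372 and F511_25374 were 0.13, -1.27 and 0.38, none of them called.

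Of the 6 tested genes of sulfolipid and galactolipid metabolism, 1 was called, and it was lower. F511_26146 encodes UDP-sulfoquinovose synthase (SQD1), which makes the head group of the sulfolipid that stands in for phosphatidylglycerol in plastids. Its FPKM was 144.82, 134.81 and 132.22 at day 0 and 98.92, 108.8 and 71.86 at day 5. It was 97.37, 77.68 and 53.22 at day 10 and 67.64, 72.8 and 60.0 at day 15. No later library reached the level of day 0. The mean fell from 137 ± 6.65 to 66.8 ± 6.44 FPKM at day 15 (SD, n = 3), so that the day 0 mean was 2.05 times that of day 15. The log2 change was -0.57 at day 5 (adjusted p = 0.11), -0.88 at day 10 (0.0354) and -1.03 ± 0.22 (SE) at day 15 (0.0123 in limma). The day 15 value was called, and the difference between days 10 and 15 was not. It lay close to the minimum, at -0.99 without replicate 1 of day 0 and -0.96 without replicate 3 of day 15. The number of members called lower at day 15 was 0 without either of these libraries, and 1 without replicate 2 or 3 of day 0 or replicate 2 of day 15.

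F511_26587, the probable monogalactosyldiacylglycerol (MGD) synthase of the chloroplast, which makes the main thylakoid lipid, had 45.79, 42.65 and 42.08 FPKM at day 0. It had 30.31, 25.94 and 26.37 at day 5 and 28.43, 27.66 and 24.88 at day 15. All later libraries lay below those of day 0, and the log2 changes of -0.64, -0.60 and -0.67 at days 5, 10 and 15 (SE 0.14) had adjusted p of 0.0163, 0.0275 and 0.0109 in limma, under the minimum size for a call. The starvation-type enzyme MGD2 of Arabidopsis was matched by BGI_novel_G000305, at 7.16 ± 0.813 FPKM at day 0 and 12.1 ± 4.83 at day 15. Its libraries of those days overlapped, and the log2 difference was 0.61 (95% confidence interval -0.43 to 1.64). Another pair of genes with the same description, F511_10498 and F511_02549, had identical values in all 12 libraries, up to 0.63 FPKM, so their reads cannot be told apart and neither was tested.

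The digalactosyldiacylglycerol (DGD) synthases, which add the second sugar, were not called. F511_29091, DGD1, was at 26.4 ± 3.25 FPKM at day 0, 15.4 ± 1.92 at day 5 and 23.9 ± 1.94 at day 15, and only its day 5 libraries lay below day 0 throughout (log2 difference -0.74, adjusted p = 0.0529 in limma). F511_03094, DGD2, was at 36.5 ± 11.9 FPKM at day 0 and 30.9 ± 1.05 at day 15, with overlapping libraries. The desaturase F511_06065 was at 13.7 ± 6.61 and 26.5 ± 13.3 FPKM on those days and also overlapped. SQD1 and the MGD synthase F511_26587 act in plastids, so plastid markers were read beside them. Other tested galactolipid genes described as chloroplastic went both ways. From day 0 to day 15 the desaturase and BGI_novel_G000305 rose on average and the DGD synthases fell, all with overlapping libraries. The 2 Rubisco small chain genes summed to 12524.88 to 24074.17 FPKM at day 5 and 10554.4 to 32446.5 at day 10, all below the day 0 range given above. The 11 chlorophyll a-b binding protein genes summed to 13406.79 to 37385.9 at day 0, 4300.7 to 7168.85 at day 5, 5512.45 to 25585.83 at day 10 and 4037.76 to 16978.78 at day 15. Their ranges at days 10 and 15 overlapped that of day 0. No gene of either list was at 0 in all libraries, and their part in the lipid gene results was not tested.

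**Figure D4:**
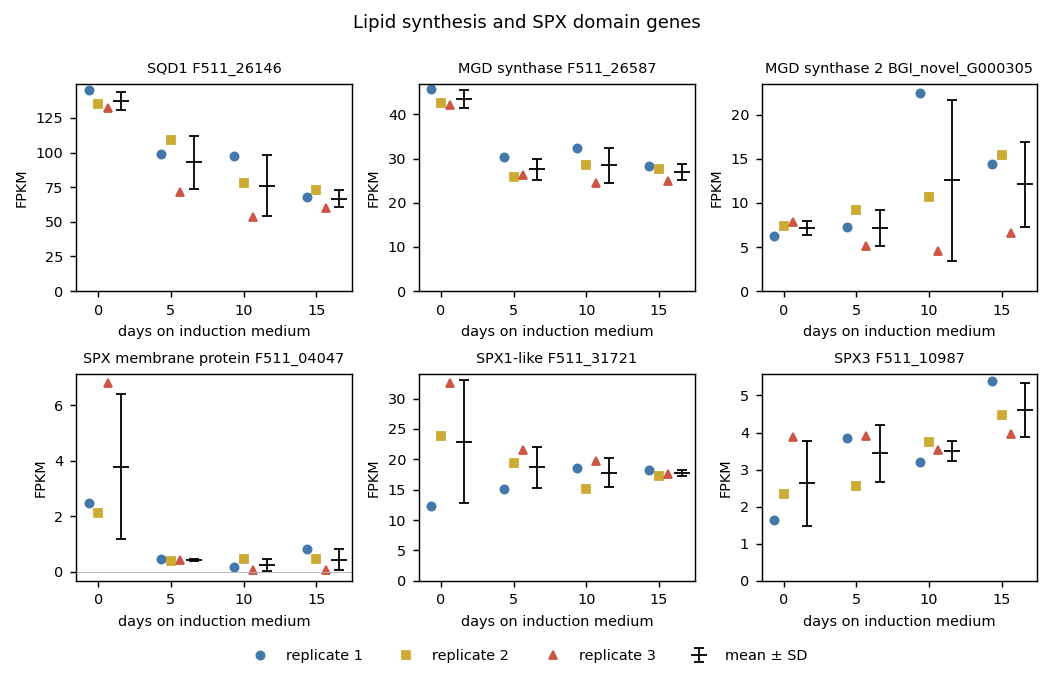
FPKM (y axis, linear) by day (x axis) for 3 lipid synthesis genes and 3 SPX domain genes, with a symbol per replicate library and a bar for the mean ± SD of 3. SQD1 steps down from 137 to 66.8 FPKM on average between day 0 and day 15, the SPX1-like gene stays within its day 0 range, and F511_04047 is above 1 FPKM in its day 0 libraries alone.

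Further genes were taken from a list of 90 text matches on terms of the phosphate pathway, of which 76 were tested. That match was loose too, and took in genes such as the flap endonuclease F511_27723 and the BEL1 homeobox homolog F511_29358. At day 5, 1 was called higher and 2 lower in limma, 3.95% of the list against 6.61% of all genes. At day 10 none was called in either direction, against 4.49% of all genes, and 21 of the 76 had an unadjusted p under 0.05 in limma, as did 4596 of all 17288 genes. At day 15, 2 were called higher and 3 lower, 6.58% against 9.02%. The list thus held no larger share of calls than all genes. BGI_novel_G000162, described as inositol-tetrakisphosphate 1-kinase 3, belongs to the kinases that build the inositol phosphates read by SPX proteins. Its FPKM was 6.79, 4.75 and 6.76 at day 0, 22.06, 18.04 and 14.05 at day 5, 11.2, 11.94 and 15.8 at day 10 and 14.89, 14.51 and 16.16 at day 15. It stood above day 0 in all later libraries, with log2 changes of 1.42 at day 5 (adjusted p = 0.00449 in limma) and 1.20 at day 15 (0.00626), and both calls held in every alternative. Other genes with inositol-tetrakisphosphate kinase descriptions exist in the table, so reads may have been divided among similar copies. Of the 13 tested genes for inositol phosphate kinases, 9 had a positive log2 change at day 5, as did 10457 of all 17288 genes. The more abundant F511_13958, inositol-tetrakisphosphate 1-kinase 1-like, went the other way without a call. Its mean FPKM was 32.9 at day 0 and 21.7 at day 5.

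F511_27134, like the mitochondrial phosphate carrier protein 3, had 8.66, 12.98 and 5.67 FPKM at day 0, 2.6, 2.07 and 1.65 at day 5 and 1.13, 1.79 and 0.62 at day 15. The libraries did not overlap with day 0, and the log2 change was -2.18 at day 15 (adjusted p = 0.00904 in limma), a call that held in every alternative. Its day 5 call, -1.65 with an adjusted p of 0.0311, was lost without replicate 1 (0.0952) or 2 (0.113) of day 0 and without replicate 1 (0.0755), 2 (0.0901) or 3 (0.0742) of day 5. A far more abundant gene described as the same carrier, F511_18395, did not fall. Its mean FPKM was 210.1 at day 0 and 299.4, 272.5 and 270.2 at days 5, 10 and 15, with no call. F511_40629 is BAH1-like, and its relative NLA of Arabidopsis is the ubiquitin ligase that removes PHT1 transporters from the membrane. It had 8.3, 6.4 and 10.17 FPKM at day 0, then 0.21, 0.8 and 2.68 at day 5, a log2 change of -2.20 (adjusted p = 0.0132 in limma), with 4.75, 7.53 and 5.67 at day 10, where it overlapped day 0. That call was lost without replicate 1 (0.0525) or 2 (0.053) of day 5. Other genes described as BAH1-like, F511_11042 and F511_22182, did not fall at day 5 and were not called. Their mean FPKM was 16.2 and 7.61 at day 0, and 27.2 and 8.33 at day 5.

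The remaining calls of the list fell at day 15. F511_15070, similar to the ubiquitin-conjugating enzyme PHO2 that lowers phosphate transport in Arabidopsis, was at 5.75, 8.25 and 21.99 FPKM at day 0, then 28.41, 31.9 and 32.01 at day 15 and just missed a call (log2 difference 1.49, adjusted p = 0.0585 in limma). F511_38398, an aluminum-activated malate transporter 12-like gene, went from 3.61, 4.21 and 3.39 FPKM to 9.01, 9.07 and 8.73, a log2 change of 1.07 (adjusted p = 0.0141) that was lost without replicate 1 of day 0 (0.0517) and stood at 0.89 after rescaling. BGI_novel_G000051, a sugar phosphatase Sgpp-like gene, went from 38.07, 28.64 and 36.91 to 16.72, 10.09 and 21.38 (-1.11, adjusted p = 0.0131), with an adjusted p of 0.0549 without replicate 1 of day 0 and a log2 change of -0.82 without replicate 2 of day 15. F511_18418, like the transcription factor WRKY75, a regulator of starvation genes in Arabidopsis, had 16.4, 10.4 and 1.28 FPKM at day 0, then 0.0, 0.81 and 0.0 at day 15. Its replicates were far apart at day 0, and its call (-2.65, adjusted p = 0.0366) was lost in 10 of the 18 alternatives.

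DNA methylation in the CG context was compared between 1 mature and 1 young leaf library in the authors' deposited regions, with no replicates. For the CHG and CHH regions the labels do not define the names of the samples compared. In the CG context 3 of the 57 members with a locus tag were tied to a region, against 3.4% of all 22312 such genes. The DGD2 gene F511_03094 held a CG region in coding sequence on scaffold KQ987269.1 at 668015 to 668729, with 20 sites, where the authors' deposited table gives a methylation level of 0.365 in mature and 0.774 in young leaves (p = 4.37e-05). Next to it, in an exon at 668729 to 668919, the same gene had a region of 5 sites that went the other way, at 0.438 in mature and 0.304 in young leaves in the authors' deposited table (p = 0.0286). In the authors' deposited table the kinase-like F511_01521 had an exon region of 17 sites on scaffold KV018098.1 at 139528 to 139968, at 0.687 in mature and 0.307 in young leaves (p = 1.5e-05). F511_00813 carried a pair of smaller CG regions, both higher in mature leaves, at 0.993 against 0.83 and 0.826 against 0.722 in the authors' deposited table. None of these 3 genes was called in the explants. No member was tied to a CHG region, against 1.04% of genes. F511_02435 and F511_01521 were tied to CHH regions in or within 2 kb downstream of the gene, which 1.35% of genes were on the positive and 1.4% on the negative strand. The ribonuclease F511_39535 and the PHT1 transporters had no listed region in any context.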

How the data were processed

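FPKM values of 24110 genes in 12 RNA libraries were used as the authors deposited them, as were methylation levels of CG regions (a fraction from 0 to 1) and the p-value of each region in 4 region tables. Tools listed in the submitters' processing notes, with no roles stated, are BSMAP, Bowtie2 2.2.5, HISAT and StringTie 1.0.4, and the genome build and counting rules are not given in the sources used here. Value columns whose sample names the labels do not define, 6 in all, were not used. Groups, days and replicate numbers came from the labels.

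Genes reaching 1 FPKM in 3 or more of the 12 libraries were fitted on log2(FPKM + 1), which understates changes of low genes. A mean per day was estimated with lmFit and moderated by eBayes (trend and robust options) of limma 3.58.1, using statmod 1.5.0 under R 4.3.3. Tests were two-sided with Benjamini-Hochberg adjustment over all genes tested. A call needed an adjusted p under 0.05 and a log2 change of at least 1 in size, and the F test of the 3 later days had no minimum change. The pipeline was tested on simulated data.

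The members, role groups, pathway list and tests were chosen with earlier results of these data known. Members called in at least 1 comparison, the most abundant member of each role group and the called pathway genes were named by rule, and all other genes were chosen after their values were seen. Replicate numbers are shared between days in the labels, without a statement that they mark a common batch. Alternatives were another pseudocount, no filter, median-ratio rescaling, a replicate block, the 6 libraries of a comparison alone, replicates 1 and 2 alone, and leaving out each library. Text matches for root meristem growth factor and sieve element occlusion, planned as cell markers, found no gene, and 6 genes each matched cyclin-B and epidermal markers and 9 matched WUSCHEL-related homeobox. No sequences are shown, since no sequence file was used here.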

Additional observations from a re-analysis of the deposited data

How the results depend on the processing

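No value of a called gene changed sign in the 18 alternatives, and 6 of the 18 member calls held in all of them. Leaving out 1 library in turn, 11 were lost, with adjusted p up to 0.126 in limma. The members called higher then numbered 2 to 5 at day 5, 2 to 5 at day 10 and 3 to 6 at day 15. Those called lower numbered 0 to 1, 0 to 2 and 0 to 2, and the F test called 2 to 9. The day 5 lower count, 1, was 0 with a pseudocount of 0.1, 2 after rescaling, 0 on the 6 libraries compared and 0 on replicates 1 and 2. On the 6 libraries compared, day 10 gave 2 higher and 0 lower and day 15 gave 1 lower, and replicates 1 and 2 gave 0 lower at both days. On the 6 libraries F511_20836 had an adjusted p of 0.05 at day 10. The successive days gave 0 members throughout. With a replicate block the counts were 5 higher and 1 lower at day 5, 4 and 1 at day 10, 7 and 2 at day 15, and 12 by the F test. The share of all genes called rose as well, from 6.61% to 8.68% at day 5, 4.49% to 6.46% at day 10, 9.02% to 11.1% at day 15 and 8.82% to 16.0% by the F test. Of 18 pairs of same-numbered libraries, 14 deviated together from their day means with r over 0.1 (range -0.01 to 0.66). Replicate 3 was matched best by replicate 3 in every pair of days, with r of 0.66 between days 5 and 10. Replicates 1 and 2 were matched best by their own number in only some pairs. Libraries of the same number thus shared deviations in part, and the main fit held no term for them. The cause of these shared deviations was not tested. Without counts, the depth that limits low genes is unknown.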

Other observations

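Markers of other cell types were read in the same libraries. As deposited, the 6 cyclin-B genes summed to 132.14 to 210.87 FPKM at day 0 and 229.23 to 282.3 at day 15. The 9 WUSCHEL-related homeobox genes summed to 26.45 to 30.39 and 46.59 to 65.61. The median-ratio factors, by which values are divided, were 0.885 to 0.947 at day 0 and 1.05 to 1.09 at day 15. The gap between the cyclin-B ranges therefore depends on the scaling of the libraries. The 6 epidermal genes, described as protodermal factor 1 or MERISTEM L1, summed to 153.31 to 317.13 FPKM at day 0 and 31.82 to 165.32 at day 5. Their sums were 82.52 to 291.0 at day 10 and 136.08 to 183.71 at day 15, and each later day overlapped day 0. The part of these cell types in the phosphate gene results was not tested.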
